A study of Mus musculus with 12 samples.

Results

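The B cell receptor and lineage genes described here are 8: Cd79a, Cd79b, Blnk, Cr2, Cd22, Ms4a1, Mef2c and Pax5. They were chosen by name, with earlier results of these data known, and each was read from the probe set of its gene, by the platform annotation, with the highest mean over 12 arrays. Of the 8 genes 7 passed the filter on low values and were among 11606 genes tested, and Pax5 did not. Lung RNA of wild-type mice was measured on Affymetrix arrays, 3 for each of 4 labelled groups: radiation with simvastatin (called combined), radiation alone, simvastatin alone, and control. Radiation was 1 exposure to 25 Gy with lungs taken 6 weeks later, and simvastatin, a blocker of cholesterol synthesis, was injected into the peritoneum at 10 mg/kg, 3 times a week for at most 6 weeks, on both sides of irradiation where it was given. The controls got vehicle. All animals are labelled wild type and the tissue lung, though the description field says control animal for all 12 arrays. The labels give an age of 8 to 10 weeks for controls and of 8 to 12 weeks for all other groups, so age and treatment cannot be told apart in any comparison with control.

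A B cell senses antigen through a membrane antibody held by the signalling partners CD79A and CD79B, whose tails are phosphorylated by Src family kinases and Syk. The adaptor BLNK then gathers Btk and phospholipase C, CD21 (the product of Cr2) lowers the threshold for antigen that carries complement, and CD22 damps the signal. The transcription factors EBF1 and PAX5 set and hold B cell identity. In the lung, B cells circulate through the vessels and gather in lymphoid aggregates beside airways after injury or infection. By its title the study was about vascular leak and inflammation of irradiated lung under simvastatin. Whole tissue was measured, so fewer B cells and less of these RNAs per cell cannot be told apart.

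Upstream sequence was found in the RefSeq table for 6 of the 8 genes, in 8 windows. The 3 windows below are shown because each holds 2 or more of the 4 motifs searched. Each is the 250 bases before the RefSeq start on GRCm38.p6, 5′ to 3′ along the gene's strand. Capitals mark 4 motifs searched on both strands: the octamer ATTTGCAT, bound by Oct factors; the palindrome bound by EBF1, searched as capitalised in the Cd22 window with any bases at its 2 central positions; AGGAAGT, a site of ETS factors such as PU.1; and CAGGTG, an E-box bound by E2A. None of the 4 motifs overlapped another in these windows.
Cd79a, chr7:24897247-24897496, plus strand: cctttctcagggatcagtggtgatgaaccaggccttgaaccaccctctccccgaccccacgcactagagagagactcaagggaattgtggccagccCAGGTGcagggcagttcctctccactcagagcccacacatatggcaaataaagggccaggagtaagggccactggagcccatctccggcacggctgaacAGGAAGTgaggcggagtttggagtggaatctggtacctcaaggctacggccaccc
Blnk, chr19:40994222-40994471, minus strand: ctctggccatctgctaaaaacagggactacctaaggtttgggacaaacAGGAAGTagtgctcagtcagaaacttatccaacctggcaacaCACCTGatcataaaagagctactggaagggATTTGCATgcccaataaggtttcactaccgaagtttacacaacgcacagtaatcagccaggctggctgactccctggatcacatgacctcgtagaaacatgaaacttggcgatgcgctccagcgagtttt
Cd22, chr7:30879029-30879278, minus strand: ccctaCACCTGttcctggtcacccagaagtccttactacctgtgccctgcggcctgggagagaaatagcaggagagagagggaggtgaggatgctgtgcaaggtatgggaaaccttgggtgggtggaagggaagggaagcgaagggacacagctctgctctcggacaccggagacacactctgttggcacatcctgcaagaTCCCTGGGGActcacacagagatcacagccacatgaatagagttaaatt

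The octamer lay in the Blnk window, 1 of the 8 member windows, and 1.6% of 32851 windows of the same length held it. The EBF1 palindrome lay in the Cd22 window, also 1 of 8, against 0.779% of all windows. The ETS site was found in the Cd79a and Blnk windows, 2 of 8, and in 7.69% of all windows. The E-box lay in those of Cd79a, Blnk, Cd22 and Cr2, 4 of 8, and in 17.2% of all. The windows of Pax5 and Mef2c held none of these motifs. A match describes the letters of a window and is not a measured binding site. The motifs were chosen with these sequences in view. On the same build the genes lie at chr7:24897497-24901858 (Cd79a), chr11:106311341-106314562 (Cd79b), chr19:40928927-40994221 (Blnk), chr1:195136811-195176880 (Cr2), chr7:30865404-30880342 (Cd22), chr19:11249679-11266149 (Ms4a1), chr13:83504017-83667079 (Mef2c) and chr4:44524748-44710694 (Pax5), so Cd79a and Cd22 share a chromosome, as do Blnk and Ms4a1. The Cd22 window lies within the outer bounds of its gene, before the start that the table gives.

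Several arrays stood apart or went against their label. Simvastatin 1, simvastatin 3 and combined 3 were nearly the same: over the 10342 probe sets with a mean above log2 9 their differences had an SD of 0.111 to 0.118, against 0.336 to 1.02 in the other 63 pairs. Simvastatin 1 and simvastatin 3 were therefore averaged and counted as 1 sample, which left 11 samples, and n is 3 in each group except simvastatin, where n is 2. Combined 3 carries another label and was kept. Cdkn1a, a p53 target raised by irradiation, read 13.01 on the array labelled control 3 against 10.25 and 10.69 on the other controls. It read 11.18 on the array labelled combined 3 against 13.17 and 13.19 on the other combined arrays, and 13.36 on the array labelled simvastatin 2 against 11.09 and 11.11. Every direction below rests on the labels as given. The lung markers Sftpc and Scgb1a1 lay between 15.57 and 16.20 on all arrays, while genes of muscle, squamous lining, brown fat and thymus differed widely between arrays of one group. Nothing in the labels says that arrays come from separate animals, so the p-values reflect only how far these samples differ, which may be technical.

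Cd79a and Cd79b encode the paired signalling chains of the B cell receptor. Cd79a, on the log2 intensity scale used throughout, read 8.09, 9.34 and 8.98 on the combined arrays 1 to 3, 7.19, 7.62 and 8.18 on the radiation arrays, 9.09, 8.26 and 8.80 on the simvastatin arrays, and 8.44, 8.84 and 7.95 on the controls. Combined 1 lay just below radiation 3, so those groups overlapped, and the 3 highest arrays were combined 2, simvastatin 1 and combined 3. Cd79b read 9.02, 10.60 and 9.73 on the combined arrays, 8.47, 9.22 and 8.96 on the radiation arrays, 9.77, 9.48 and 9.51 on the simvastatin arrays, and 9.82, 10.30 and 9.09 on the controls. The order was like that of Cd79a at its ends, with combined 2 highest and radiation 1 lowest. Radiation and combined overlapped here too, since combined 1 was below radiation 2.

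Blnk, the adaptor downstream of Syk, read 8.77, 9.81 and 8.82 on the combined arrays, 7.52, 8.07 and 8.26 on the radiation arrays, 8.76, 8.23 and 8.70 on the simvastatin arrays, and 8.71, 8.62 and 7.92 on the controls. Every combined array lay above every radiation array and every control. Macrophages also use Blnk, so its RNA is not from B cells alone.

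Among the surface molecules, Cr2, the complement receptor of B cells and follicular dendritic cells, had the widest range. It read 6.72, 7.52 and 6.61 on the combined arrays and 4.03, 5.65 and 5.65 on the radiation arrays, and it read 6.74, 6.01 and 6.46 on the simvastatin arrays and 6.54, 6.82 and 5.66 on the controls. The radiation arrays were the 3 lowest of all 12, although radiation 2 and radiation 3 lay within 0.01 of the array labelled control 3. Cd22, the inhibitory receptor for sialic acid, read 8.12, 9.36 and 8.32 on the combined arrays, 7.26, 7.79 and 8.00 on the radiation arrays, 8.46, 8.27 and 8.42 on the simvastatin arrays, and 8.15, 8.90 and 7.36 on the controls. Combined and radiation did not overlap, but the controls spanned both. Ms4a1, which encodes the B cell antigen CD20, read 9.30, 11.02 and 9.54 on the combined arrays, 8.79, 9.39 and 9.04 on the radiation arrays, 9.56, 9.79 and 9.48 on the simvastatin arrays, and 10.20, 10.31 and 8.70 on the controls. It was the only tested member whose lowest array was not a radiation array: that was the array labelled control 3.

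Of the transcription factors, Mef2c acts in B cells and also in muscle, heart and endothelium. It read 11.02, 10.77 and 10.50 on the combined arrays, 9.98, 10.26 and 9.81 on the radiation arrays, 10.43, 10.28 and 10.32 on the simvastatin arrays, and 10.51, 11 and 10.88 on the controls. The radiation arrays were below all others, the simvastatin arrays came next, and the control and combined arrays shared the top of the range. Here the array labelled control 3 was high, whereas it was among the lowest for the 6 other members. Pax5 lay between 1.90 and 1.96 on every array for its stronger probe set and between 1.83 and 1.92 for its other one, under the filter value of 4.84. Values at this floor have no order, and no level of Pax5 RNA can be read from them. The filter asked for a value above the median of all values on at least 3 of 12 arrays, and the other 7 genes exceeded it on 11 or 12 arrays.

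**Figure D1:**
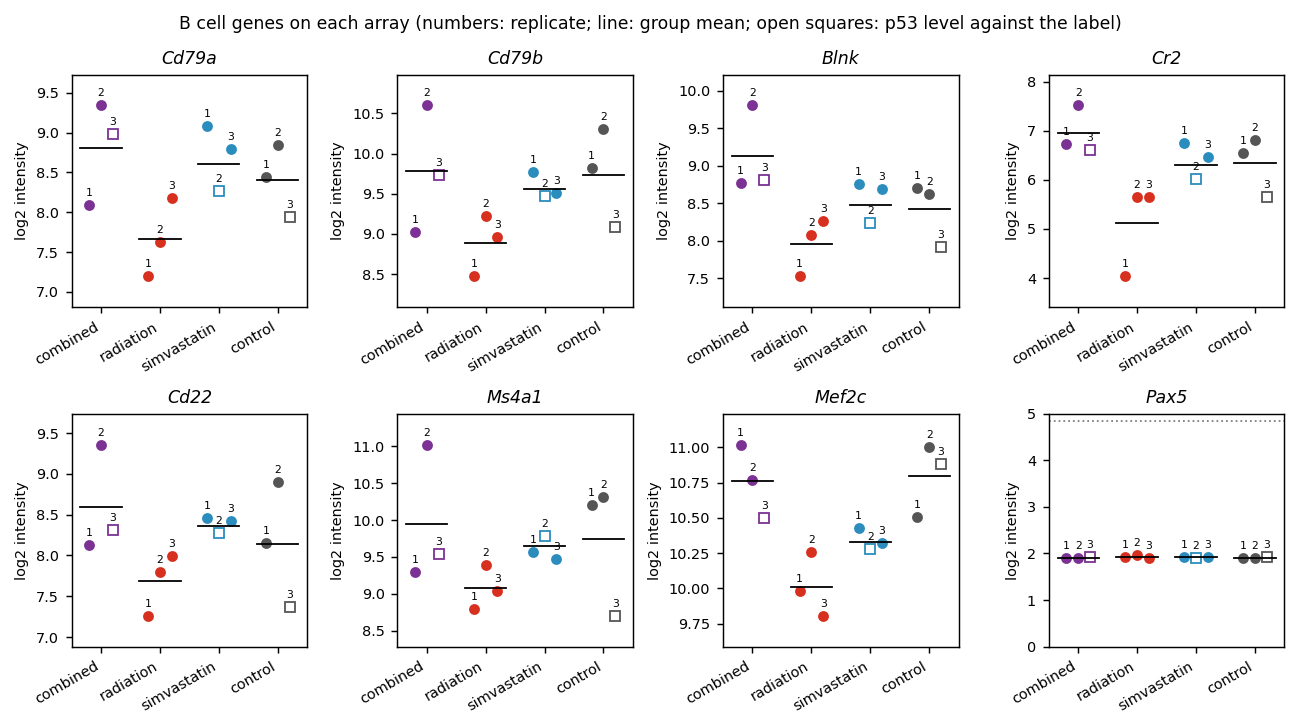
Log2 intensity (y axis) of each of 8 genes on each array, with the groups along the x axis, replicate numbers above the points and a line at each group mean (simvastatin 1 and 3 count as 1 sample in it). Open squares are the 3 arrays whose p53 target level goes against their label; the dotted line for Pax5 is the filter value of 4.84. Combined 2 is highest for 6 genes and Pax5 lies near 1.9 throughout.

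Other probe sets of the same genes ran in the same direction. The second probe set of Ms4a1 differed by 1.09 between combined and radiation, against 0.87 for the one used. The 5 probe sets of Mef2c gave 0.21 to 0.77 for that difference and -0.78 to -0.13 for radiation minus control. The second Cd22 probe set had a mean of 2.81 and did not pass the filter. Cd79a, Cd79b, Cr2 and Blnk had 1 probe set each.

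Combined minus radiation asked what simvastatin did in irradiated lungs. All 7 genes tested were higher in the combined group, with a median difference of 0.92 on the log2 scale, while the median over all 11606 genes was -0.09 and 37.4% of them lay above 0. The differences of receptor chains and adaptor were 1.14 ± 0.40 (SE) for Cd79a, 0.90 ± 0.42 for Cd79b and 1.18 ± 0.35 for Blnk. Among surface genes Cr2 stood at 6.95 ± 0.50 in combined and 5.11 ± 0.93 in radiation lungs (SD, n = 3 each), a difference of 1.84 ± 0.51 or 3.58-fold. Cd22 differed by 0.92 ± 0.43 and Ms4a1 by 0.87 ± 0.51. Mef2c differed by 0.75 ± 0.20, the smallest size with the smallest error, and had the lowest unadjusted p of the set.

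By limma 0 of the 7 genes passed at an adjusted p of 0.05, each with an adjusted p of 0.835, and 0% of all genes did. At an unadjusted p under 0.05 limma counted 4 of the 7, all higher in the combined group, namely Cd79a (95% interval of the difference 0.25 to 2.02), Cr2 (0.70 to 2.98), Blnk (0.39 to 1.96) and Mef2c (0.31 to 1.19). Of all genes 1.59% were counted higher on that rule. Combined and radiation did not overlap for 4 of the 7, Cr2, Blnk, Cd22 and Mef2c, with the combined group above, and for 3.7% of all genes in that direction. The members vary together, so these counts are not 7 separate observations.

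The size rested on both extreme arrays. Without combined 2 and radiation 1, a choice made after seeing the data, all 7 differences stayed above 0, their median was 0.63, and limma counted 1 of 7 at an unadjusted p under 0.05 in place of 4. With median centring it counted 2 of 7, and over the arrays left out singly 3 to 6 of 7. With both combined 2 and radiation 1 left out, Ms4a1 was at 0.20 ± 0.51, Cd79b at 0.29 ± 0.42 and Cd22 at 0.32 ± 0.46. In that setting Blnk was at 0.63 ± 0.34, Cd79a at 0.63 ± 0.45 and Cr2 at 1.01 ± 0.46, while Mef2c stood at 0.73 ± 0.28. Without combined 3 the median was 1.06. Leaving out the 3 arrays that go against their label, or the near-identical arrays combined 3, simvastatin 1 and simvastatin 3, gave the same median. Of all these arrays only combined 3 enters this difference, so these are 1 check. When limma weighted the arrays by their fit, 4 of the 7 passed upward, Cd79a, Cr2, Blnk and Mef2c, at adjusted p-values of 0.0344 to 0.044, beside 3.41% of all genes.

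**Figure D2:**
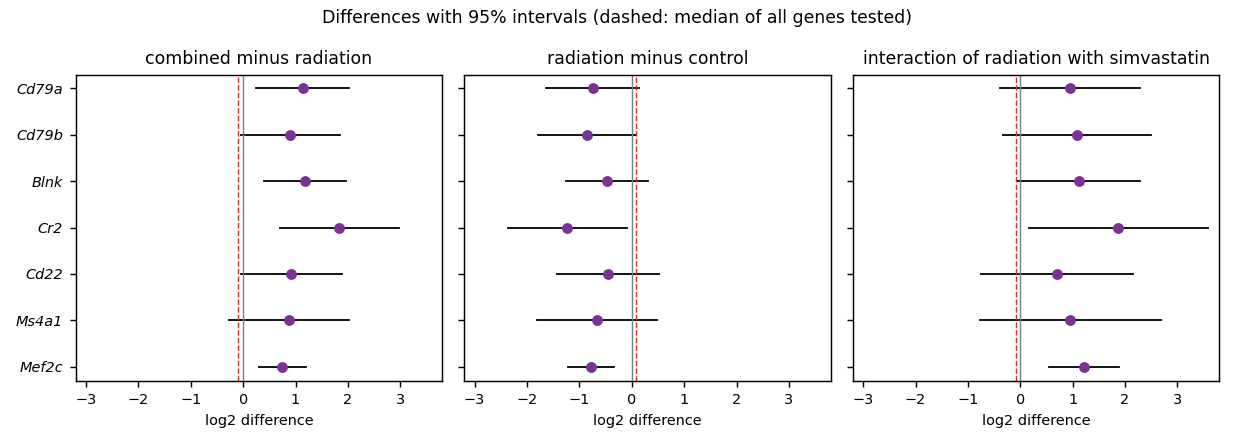
Log2 difference (x axis) of each of 7 genes tested (y axis) in 3 comparisons, with points at the limma estimate and lines for its 95% interval; the dashed line is the median of all 11606 genes. Points for combined minus radiation lie between 0.75 and 1.84 and those for radiation minus control between -1.23 and -0.45.

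The effect of 25 Gy without the drug was read from radiation minus control. All 7 genes tested were lower on the radiation arrays, with a median of -0.74 against 0.08 over all genes. Cr2 averaged 5.11 ± 0.93 in radiation and 6.34 ± 0.61 in control lungs (SD, n = 3 each), a difference of -1.23 ± 0.51 (SE). Cd79b differed by -0.85 ± 0.42, Mef2c by -0.78 ± 0.20, Cd79a by -0.74 ± 0.40, Ms4a1 by -0.66 ± 0.51, Blnk by -0.47 ± 0.35 and Cd22 by -0.45 ± 0.43. Limma passed 0 of the 7, at adjusted p-values of 0.751 to 0.774, and 0% of all genes. At an unadjusted p under 0.05 limma counted 2 of the 7 as lower, Cr2 (95% interval -2.37 to -0.09) and Mef2c (-1.23 to -0.34), against 0.965% of all genes. The same 2 genes had radiation arrays below every control, against 2.03% of all genes.

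The array labelled control 3 stood near the radiation arrays for 6 genes and away from them for Mef2c. Without control 3, combined 3 and simvastatin 2 the median was -0.97, and Cr2 was at -1.57 ± 0.57, Cd79b and Ms4a1 both at -1.18 ± 0.49 and Mef2c at -0.74 ± 0.23, with limma adjusted p-values of 0.205 to 0.336 over the 7 genes. Without control 1, the array rich in thymocyte genes, the median was -0.73. It was -0.53 without control 2 and -0.52 without radiation 1. Cr2 was at -0.69 without radiation 1, and without control 2 Cd22 was at -0.08 and Ms4a1 at -0.37. At an unadjusted p under 0.05 limma counted 1 of 7 without control 1, control 2 or radiation 1, 5 of 7 without control 3, and 0 of 7 with median centring. With array weights limma passed 3 of the 7 downward, Cd79a, Cr2 and Mef2c, at adjusted p-values of 0.0298 to 0.0491, beside 2.93% of all genes. This comparison shares its radiation arrays with combined minus radiation, so the opposite signs of the same genes in both are not independent.

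The other comparisons gave smaller differences for most of the set, and limma passed 0 of 7 genes and 0% of all genes in each. At an unadjusted p under 0.05 it also counted 0 of 7, against 2.82% of all genes in combined minus control, 1.32% in combined minus simvastatin and 1.84% in simvastatin minus control. In combined minus control the 7 differences ran from -0.03 for Mef2c to 0.71 for Blnk, with a median of 0.40. Without combined 2 that median was 0.08 with 4 of 7 above 0, without control 3 it was 0.07, without control 2 it was 0.61 and without combined 1 it was 0.70, and with array weights it was -0.05. Blnk averaged 9.13 ± 0.59 in combined and 8.42 ± 0.43 in control lungs (SD, n = 3 each), and it was the single member whose combined arrays all lay above the controls, against 2.67% of all genes. In combined minus simvastatin all 7 were above 0, from 0.20 for Cd79a to 0.65 for Blnk, with a median of 0.30. Without combined 2 the direction turned, with 3 of 7 above 0 and a median of -0.07, while the median was 0.61 without combined 1 and 0.50 without combined 3. Over the 11 samples Cr2, Blnk and Mef2c did not overlap in combined minus simvastatin, with the combined group above. That is 3 of 7, against 7.75% of all genes. For Cr2 this held only with simvastatin 1 and simvastatin 3 averaged: simvastatin 1 read 6.74, above combined 1 at 6.72 and combined 3 at 6.61. Combined 3 is also nearly the same as both averaged arrays. In simvastatin minus control 3 genes lay above 0 and 4 below, with a median of -0.03. That median changed sign with the array left out, from -0.37 without control 3 to 0.26 without simvastatin 2.

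For 6 members the difference between simvastatin and control was at most 0.22 in size, with 95% limma intervals that all included 0. The interval of Cr2 ran from -1.31 to 1.24, which leaves room for changes as large as those seen above. Mef2c differed more in size, at 10.33 ± 0.07 on the simvastatin samples (SD, n = 2) and 10.80 ± 0.26 on the controls (SD, n = 3), a difference of -0.47 ± 0.22 (SE). The 95% limma interval of Mef2c, -0.965 to 0.025, also included 0. Its simvastatin samples lay below every control, as did those of 7.96% of all genes.

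The interaction asks whether simvastatin had another effect in irradiated than in unirradiated lungs. All 7 members had a positive interaction with a median of 1.08, against -0.09 over all genes. Mef2c was at 1.22 ± 0.30 and Cr2 at 1.87 ± 0.76, and these were the 2 of 7 with an unadjusted limma p under 0.05, against 1.88% of all genes counted upward. Mef2c had the second lowest p of all genes in this comparison. Limma adjusted p-values were 0.882 for each of the 7, so 0 passed. Without combined 2 and radiation 1 the median was 0.47, and without combined 2 alone it was 0.68.

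The members varied together across arrays, with Mef2c apart. Over 11 samples, which pool the 4 groups, the 15 pairs among the other 6 genes had Pearson's r of 0.75 to 0.93 and Spearman's rho of 0.62 to 0.94. All 15 passed a permutation test of r after adjustment over the 21 pairs computed (adjusted p of 0.00084 to 0.011). For rho 13 of 15 passed. The samples are not all independent, since a combined array is nearly the same as the averaged simvastatin arrays. Differences between the pooled groups also add to r, and the genes were chosen with these data known. All permutation p-values of these pairs may therefore overstate the evidence. Leaving out the 2 samples farthest from the median of the first gene of each pair gave r of 0.52 to 0.93. By r, Ms4a1 with Cd79b was the closest pair (r = 0.93, permutation p = 4e-05) and Ms4a1 with Cd79a the loosest of the 15 (r = 0.75, permutation p = 0.0078). By rho the order differed, with Cd79a and Cd22 closest (rho = 0.94) and Ms4a1 and Blnk loosest (rho = 0.62). The 6 pairs with Mef2c had r of 0.38 to 0.64 and rho of 0.31 to 0.75, and 1 of them, with Cr2, passed after adjustment (adjusted permutation p = 0.039).

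**Figure D3:**
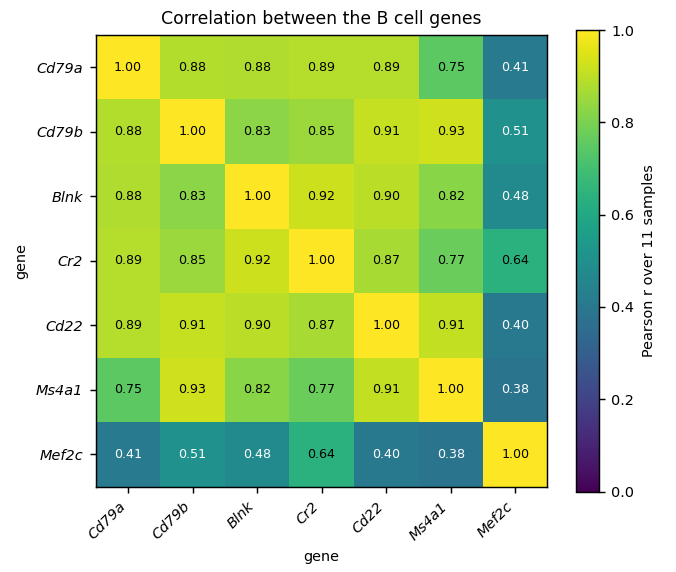
Pearson's r over 11 samples between each pair of 7 genes (both axes), printed in the cells and coloured from 0 to 1. The Mef2c row lies between 0.38 and 0.64 and all cells among the other genes at 0.75 or above.

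On the mean of the 7 genes, each centred on its own mean of 12 arrays, combined 2 stood highest at 1.07 and radiation 1 lowest at -1.09. Combined 1 was at 0.02 and combined 3 at 0.23, radiation 2 and radiation 3 at -0.41 and -0.43, the simvastatin arrays at 0.27, -0.08 and 0.11, and the controls at 0.21, 0.56 and -0.47. Combined 2 ranked first for 6 genes and radiation 1 last for 5. The spread among combined arrays and among controls was thus about as wide as the distance between those groups and the radiation group.

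Among all other genes tested, the 10 whose values over 11 samples were most like this mean had Pearson's r of 0.89 to 0.95. They were Bcl11a, a transcription factor of B cell development, at r = 0.95, Ighv14-2, an antibody heavy chain variable segment, at 0.95, Ebf1 at 0.94, Bank1, a scaffold protein of B cell receptor signalling, at 0.93, and Btla, an inhibitory receptor of lymphocytes, at 0.92. Then came Fcmr, the IgM Fc receptor, at 0.92, the chemokine receptor Ccr6 at 0.91, Fcer2a, which encodes CD23, at 0.90, Cxcr5, the receptor that guides B cells to follicles, at 0.90, and the inhibitory lectin Siglecg at 0.89. For 9 of the 10 the highest array was combined 2, and for all 10 the lowest was radiation 1. These genes were picked for their likeness, so no test is given.

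Other genes of the pathway were described from lists written with earlier results of these data known. Of 18 B cell surface and follicle genes 15 were tested: 13 were above 0 in combined minus radiation with a median of 0.80, and 13 were below 0 in radiation minus control with a median of -0.72. Limma passed 0 of the 15 in either comparison, and at an unadjusted p under 0.05 it counted 4 as higher in the first, against 1.59% of all genes, and 4 as lower in the second, against 0.965% of all genes. Ccr6 read 5.24, 6.10 and 5.13 on the combined arrays, 2.99, 3.69 and 4.62 on the radiation arrays, 5.12, 5.10 and 5.12 on the simvastatin arrays and 5.69, 5.22 and 4.20 on the controls. Its combined arrays all lay above its radiation arrays, as for 3.7% of all genes, with a difference of 1.72 ± 0.53 (limma adjusted p = 0.835). Cd37, a tetraspanin of B cells, read 7.75, 7.99 and 8.06 on the combined arrays and 5.29, 4.07 and 7.51 on the radiation arrays, a difference of 2.31 ± 0.84. Here radiation 2 was the lowest array and radiation 3 lay close to the combined arrays.

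Of 19 transcription factors of the B lineage 17 were tested, with 14 above 0 in combined minus radiation at a median of 0.49 and 14 below 0 in radiation minus control at a median of -0.44. Limma passed 0 of the 17, and at an unadjusted p under 0.05 it counted 4 as higher in the first comparison, against 1.59% of all genes, and 1 as lower in the second, against 0.965%. Pou2af1, the coactivator that works with Oct factors on octamers, read 9.46, 10.15 and 8.47 on the combined arrays and 7.42, 8.34 and 8.24 on the radiation arrays, a difference of 1.36 ± 0.43. Ebf1 differed by 0.59 ± 0.23, and neither gene overlapped between these groups, as was so for 3.7% of all genes with the combined group above. In radiation minus control the lowest p of this list belonged to Tcf3, which encodes E2A, at -0.58 ± 0.26, and to Ets1 at -0.72 ± 0.34. Both genes read highest on control 1, the array rich in thymocyte genes, and without it Ets1 was at -0.37. Pou2f2, the gene of Oct-2, read 2.08 to 2.19 and did not pass the filter.

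Of 30 genes listed for signalling from the receptor 27 were tested, with 18 above 0 in combined minus radiation at a median of 0.14 and 14 below 0 in radiation minus control at a median of -0.06. Limma passed 0 of the 27, and at an unadjusted p under 0.05 it counted 2 as higher in combined minus radiation, against 1.59% of all genes, and 0 in either direction in radiation minus control. Cd72, an inhibitory receptor of B cells, differed by 1.40 ± 0.42 between combined and radiation and Siglecg by 1.64 ± 0.59. In radiation minus control Bank1 was at -1.03 ± 0.50 and Prkcb, a kinase of the receptor pathway, at -1.41 ± 0.70. Prkcb read 11.49 on control 1, the array rich in thymocyte genes, against 8.40 and 8.60 on the other controls. Its difference was -0.41 without control 1.

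Of 8 genes listed for B cell precursors 2 were tested, Cd93, which endothelium also expresses, and Il7r, which T cells also use. The surrogate light chain genes Vpreb1 and Igll1 read 2.19 to 2.42 and 2.31 to 2.78 over all arrays, and Vpreb3 read 3.19 to 4.46. Rag1, Rag2 and Dntt, which recombine or extend antigen receptor genes in T cell precursors as well, read as low as 2.10, 2.75 and 2.14 and as high as 14.42, 11.33 and 13.10, but above the filter value on fewer than 3 arrays. Of the antibody-secreting cell genes 8 of 11 were tested. In combined minus radiation 5 were above 0 and 3 below, with a median of 0.24. Mzb1 differed there by 2.02 ± 0.44 and Ighm by 2.83 ± 0.87, both without overlap, as for 3.7% of all genes. Limma passed 0 of the 8 there and counted 3 as higher at an unadjusted p under 0.05, against 1.59% of all genes. In radiation minus control 4 were above 0 and 4 below, with a median of 0.04. The named genes of that comparison had higher means in radiation than in control lungs, Sdc1 at 13.07 and 12.66 and Xbp1 at 13.54 and 13.39. The groups overlapped for Sdc1, at 12.86 to 13.44 in radiation and 12.13 to 13.01 in control lungs. For Xbp1 they met at 13.45.

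Markers of other cells moved with some of the same arrays, and their part in the B cell results was not tested. The T cell and thymocyte list, with 9 of 16 genes tested, stood at 5.11 on control 1 and 1.72 on combined 1, on the same centred scale, and between -1.22 and 0.27 on the other 10 arrays. Its summed intensity ranged from log2 10.05 to 12.48 in combined, 9.57 to 10.30 in radiation, 9.94 to 10.63 in simvastatin and 10.00 to 15.72 in control lungs, and the T cell gene Cd8b1 was as low as 3.01 on combined 3. Combined 2, the array highest for B cell genes, stood at 0.27 on the T cell list. Skeletal muscle markers, with 10 of 11 tested, had summed intensities of 12.45 to 16.79 in combined, 11.55 to 15.88 in radiation, 11.26 to 12.42 in simvastatin and 15.08 to 16.30 in control lungs. Squamous epithelium and brown fat markers, with 7 of 8 tested, had sums of 6.80 to 16.54, 7.53 to 13.74, 7.03 to 7.20 and 12.90 to 16.41 in those groups, and combined 2 stood at 5.28 on their centred scale. On combined 3 both lists were low, at -3.79 and -3.52, with Krt4 and Ucp1 at 2.77 and 2.21, and its B cell genes stood at 0.23. In combined minus radiation the T cell list had 9 of 9 genes tested above 0 with a median of 1.03, skeletal muscle 10 of 10 with 1.11, and squamous epithelium and brown fat 7 of 7 with 2.89, the same direction as the B cell genes. In radiation minus control all genes tested of these 3 lists were below 0, with medians of -1.99, -2.85 and -4.71, again the direction of the B cell genes.

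Other cell types express single members. Muscle, heart and endothelium share Mef2c: beside the skeletal muscle values above, cardiac muscle markers had 6 of 7 above 0 in combined minus radiation with a median of 0.42 and a median of 0.02 in radiation minus control, and endothelial markers had 6 of 11 above 0 with medians of 0.01 and 0.35. Macrophages share Blnk, and of 10 dendritic cell and macrophage markers 3 were above 0 in combined minus radiation and 7 below, with a median of -0.38, while in radiation minus control the median was 0.48. Within that list Marco, a scavenger receptor of macrophages, read 8.09, 6.54 and 7.37 on the combined arrays and 4.07, 5.23 and 2.10 on the radiation arrays. Its difference was 3.53 ± 1.15 (limma adjusted p = 0.835) without overlap, as for 3.7% of all genes with the combined group above. Mrc1, the other named gene of that comparison, went the other way, at a mean of 11.57 in combined and 11.97 in radiation lungs. Follicular dendritic cells share Cr2, and of 8 genes of follicular stroma 4 were tested, with medians of -0.08 and 0.44 in these comparisons. In combined minus radiation 1 of the 4 was above 0 and 3 were below. The 1 above was Cxcl13, the chemokine that draws B cells into follicles. It read 10.66, 10.38 and 9.33 on the combined arrays and 8.90, 8.35 and 7.10 on the radiation arrays. Its difference was 2.01 ± 1.26 without overlap, as for 3.7% of all genes with the combined group above. Tnfsf13b, the other named gene, was at a mean of 9.85 in combined and 10.04 in radiation lungs. The part of these cell types in the values of Mef2c, Blnk and Cr2 was not tested.

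**Figure D4:**
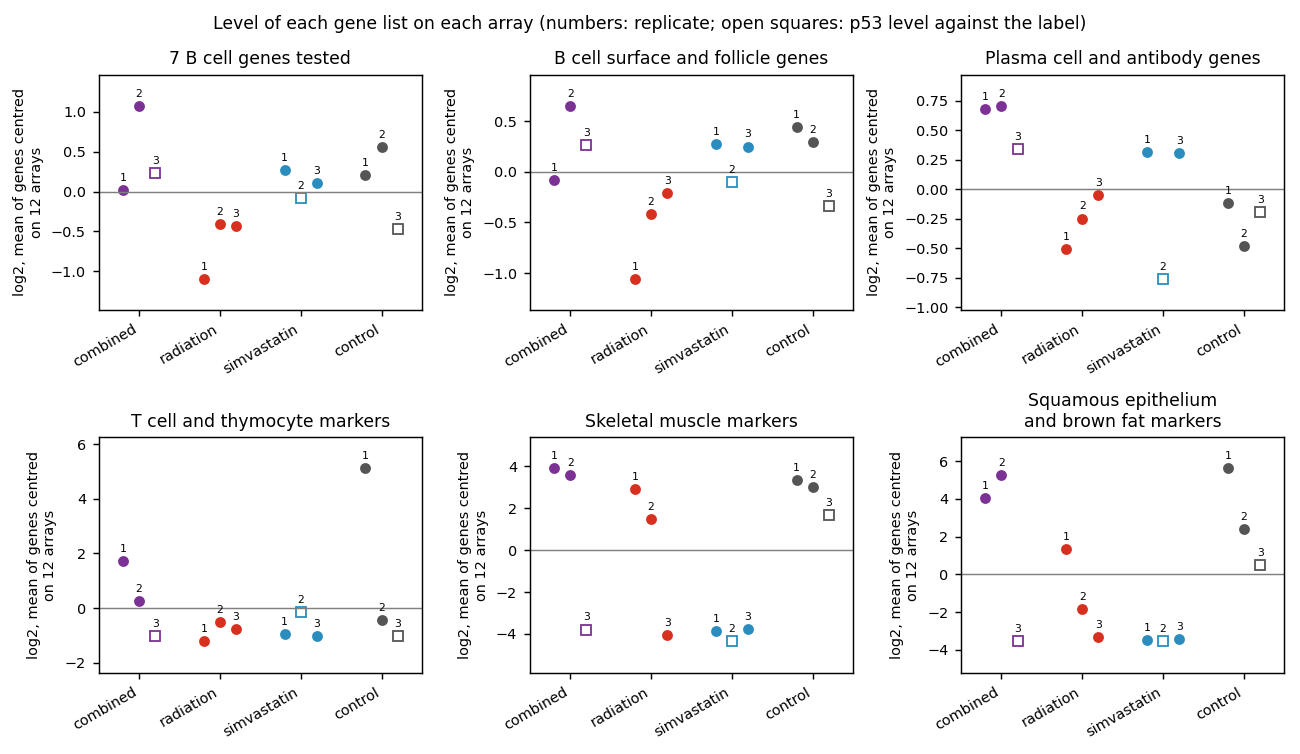
Mean log2 level of 6 gene lists, each gene centred on its mean over 12 arrays (y axis), for every array in its group (x axis), with replicate numbers above the points and open squares for the arrays whose p53 target level goes against the label. The B cell genes are highest on combined 2 and lowest on radiation 1, the T cell markers highest on control 1, and the muscle and squamous markers are low on combined 3, radiation 3 and all simvastatin arrays.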

How the data were processed

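The deposited table holds log2 intensities for 45101 probe sets on 12 arrays. Per the submitters' processing notes MAS5 and GCRMA were used, and no version is stated in the labels. Array medians lay between 4.42 and 5.12. The 64 Affymetrix control probe sets were left out. Of the others 34945 had 1 gene symbol in the platform annotation, 932 several and 9160 none, and symbols were updated through 34741 Entrez identifiers that matched RefSeq. A probe set was kept above log2 4.84 on at least 3 arrays, and each gene was read from its kept probe set of highest mean (11606 genes). Group means of 11 samples were fitted by limma 3.58.1 (R 4.3.3) with 7 residual degrees of freedom, by lmFit and eBayes with a trend. P-values are two-sided and adjusted by Benjamini and Hochberg over all genes of a comparison. The fit was tested on simulated data. Correlations used 100000 permutations. The members, gene lists and the averaging of simvastatin 1 and 3 were chosen with earlier results of these data known. Named list genes are the 2 of lowest p of a list in combined minus radiation and in radiation minus control. Labels share replicate numbers 1 to 3, and the reported fit did not pair arrays by them.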

Additional observations from a re-analysis of the deposited data

Results flagged for a closer look

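The interaction of Mef2c, 1.22 ± 0.30 (SE) on the log2 scale, is listed because its samples moved in opposite directions in irradiated and unirradiated lungs: every combined array lay above every radiation array, and every simvastatin sample lay below every control. The test of that difference itself, limma's interaction term, gave an unadjusted p of 0.0023 and an adjusted p of 0.882, so it did not pass. It lay between 0.86 and 1.43 in 25 other settings, some of which cannot move it, with limma adjusted p-values of 0.251 or more. The groups hold 3 arrays or 2 samples, too few for a test of single outlying arrays.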

How the results depend on the processing

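Some settings leave both groups of a comparison unchanged and cannot move its differences, so the values counted here are not separate checks. The 7 B cell genes tested kept their sign in radiation minus control, combined minus radiation and the interaction in all other settings, 539 values in all, and 7 of these values passed the threshold, each with array weights. Their median ran from -1.24 to -0.47 in radiation minus control, 0.55 to 1.28 in combined minus radiation, -0.41 to 0.26 in simvastatin minus control, -0.05 to 0.70 in combined minus control and -0.07 to 0.61 in combined minus simvastatin. In the interaction it was 1.58 with array weights and 0.47 without combined 2 and radiation 1, an alternative chosen after seeing the data. With every array centred on its median, the all-gene median was -0.46 in combined minus radiation and 0.36 in radiation minus control. Relative to it the B cell median was 1.01 and -0.83, as against 1.01 and -0.83 before centring. Centring shifts all genes of an array alike, so this likeness was fixed in advance apart from the genes kept.

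The count of genes was 0 in each comparison as reported. With array weights it was 1203 in radiation minus control, 1173 in combined minus radiation and 43 in combined minus control. Those weights ran from 0.16 on control 1 to 3.52 on control 2. Without control 3, combined 3 and simvastatin 2 it was 9 in radiation minus control and 2 in combined minus control. With only the groups compared it was 13 in simvastatin minus control. Leaving out 1 array gave 0 to 1 in radiation minus control, combined minus control and the interaction, the 1 being without control 3. The cause was not tested.

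With the replicate number as a block on 12 arrays the count was 0 in each comparison. The B cell medians were 0.92 in combined minus radiation, -0.74 in radiation minus control and 1.03 in the interaction. Every group holds replicates 1 to 3, so the block could change only the errors of the differences, not their size. Of the pairs of same-numbered arrays, 8 of 18 had a correlation over 0.1, with a median of 0.06 and a range of -0.26 to 0.41. Among pairs of different number 9 of 36 did, with a median of -0.04 and a range of -0.52 to 0.42.

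Some named genes turned sign. In radiation minus control Cd93 was at -0.22 and Esam at -0.11 with array weights, Il7r was at 0.15 with median centring and 0.32 without combined 2 and radiation 1, and leaving out 1 array gave -0.50 to 0.44 for Il7r, -0.054 to 0.74 for Ltbr and -1.34 to 2.48 for Nppa. In combined minus radiation Il7r was at -0.14 without combined 2 and radiation 1, Scgb1a1 at -0.20 with median centring, and Cd93 ran from -0.26 to 0.083 when 1 array was left out. The number of arrays limits the precision of every value.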
